A study of Homo sapiens with 15 samples.

Results

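The genes described are 8 components of the death receptor and caspase pathway: the receptors FAS, TNFRSF1A, TNFRSF10A, TNFRSF10B and TNFRSF10D, the caspases CASP8 and CASP9, and the caspase regulator CFLAR. They were chosen by name, as every non-control array probe that carries a RefSeq accession of 1 of these genes, which gave 11 probes for the 8 genes among 42405 probes on the array and among 19483 genes with a RefSeq symbol. The cells were PE/CA-PJ41, an immortalised human oral squamous carcinoma line, kept in supplemented medium for 24 h before RNA extraction. The samples labelled CYGB+ carried the pCMV6-Neo plasmid with the human cytoglobin cDNA under G418 selection and, per the study's methods, came from the clone LST421; the samples labelled NCE (MOCK) carried an empty vector per the labels, whereas the study's paper calls its NCE control untransfected. Each group held 3 biological replicates, hybridised on 3 arrays each for NCE and on 2 arrays each for CYGB+, 15 arrays in all. The CYGB+ cells were a single clone with a CMV-driven transgene. A difference between the groups therefore cannot be told apart from a difference between that clone and the control cells. The p-values measure the spread between 3 samplings of each cell line, with the variation between arrays included in that spread.

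Death receptors are cell surface proteins of the tumour necrosis factor receptor superfamily with a cytoplasmic death domain. Binding of FAS ligand, TNF or TRAIL lets these receptors recruit adaptors such as FADD, which gather and activate the initiator caspase encoded by CASP8, while CFLAR encodes the c-FLIP proteins that occupy the same platform and limit or tune that activation. TNFRSF10A and TNFRSF10B encode the death-inducing TRAIL receptors, TNFRSF10D encodes a TRAIL receptor with a truncated death domain that acts as a decoy, and CASP9 encodes the initiator caspase of the mitochondrial route, activated on the apoptosome.

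None of the 11 probes differed between the CYGB+ and NCE samples at an adjusted p below 0.05 (limma, Benjamini-Hochberg over all 42405 probes), against a background of 3.47% of all probes, 1.76% higher and 1.71% lower in CYGB+. The lowest values relative to NCE were those of the pair of death-inducing TRAIL receptors. The log2 difference, CYGB+ minus NCE, was -0.71 for TNFRSF10A (95% CI -1.16 to -0.25, adjusted p = 0.0943) and -0.65 for TNFRSF10B (95% CI -1.02 to -0.28, adjusted p = 0.0638), neither past the threshold. In RNA from a whole culture, fewer cells with a transcript and less of it per cell cannot be told apart. The 9 other probes lay between -0.23 and 0.30. At an unadjusted p below 0.05 the limma fit counted 2 of the 11 probes, against 20.3% of all probes. The methods' t-test counted 1 before adjustment, against 17.8% of all probes, and 0 after it. The median difference was -0.01 over the 11 probes and 0 over all probes.

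**Figure D1:**
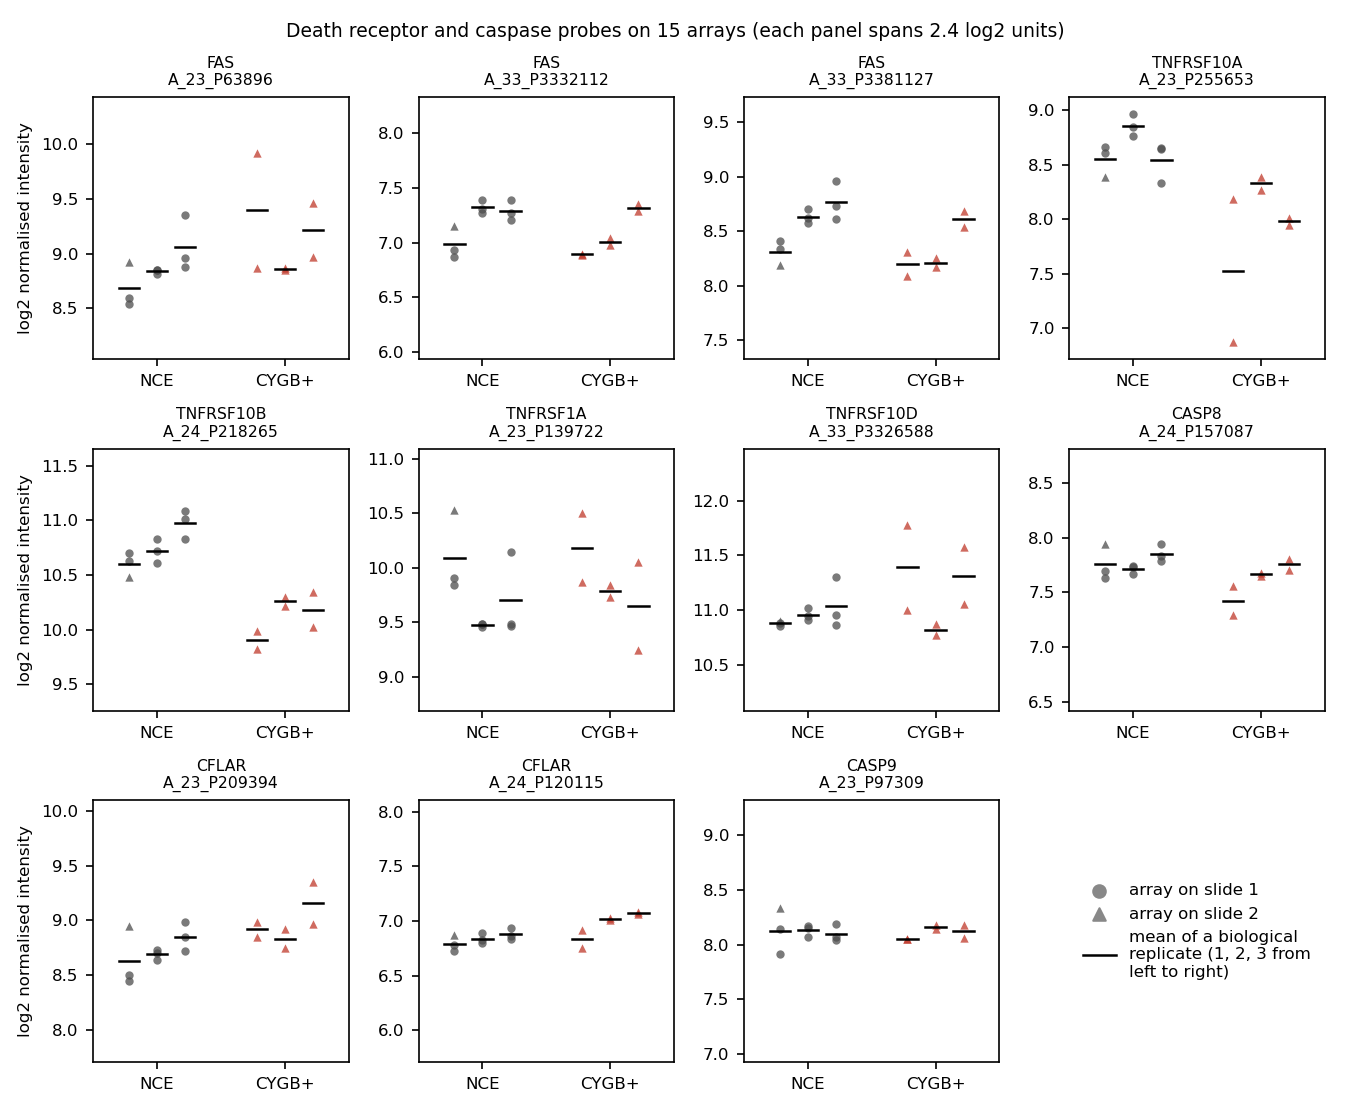
Log2 normalised intensity (vertical axis, every panel spanning the same range) of the 11 probes on the 15 arrays, with NCE in grey and CYGB+ in red, circles for slide 1, triangles for slide 2 and black lines for the means of biological replicates 1, 2 and 3 from left to right. TNFRSF10A and TNFRSF10B are the panels in which all 3 CYGB+ replicate means lie under all 3 NCE replicate means.

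Values throughout are the green-channel signal of each array after background correction and quantile normalisation, on the log2 scale, and a level is the mean of a biological replicate's arrays. All 11 probes were well above background on all 15 arrays and none was saturated. Between 48.9% and 57.3% of probes were well above background per array. The median correlation of an array with the others of its group was 0.983 to 0.991 for 11 arrays and 0.928 to 0.981 for the other 4. These 4 were taken as the 2 lowest of NCE and the 2 lowest of CYGB+. Slide 1 held 8 NCE arrays, while slide 2 held 1 NCE array and all 6 CYGB+ arrays, so slide and group overlapped almost completely. That NCE array of slide 2 was 1 of the 4, at 0.981. It was correlated only with NCE arrays of slide 1, so slide and array quality cannot be told apart there. The CYGB probe read 11.86, 12.17 and 11.96 in the NCE replicates and 11.35, 12.39 and 11.97 in the CYGB+ replicates, a difference of -0.10 (95% CI -0.65 to 0.45). It therefore did not separate the groups. The probe was well above background on all 15 arrays, NCE among them, whereas the study's paper describes the parent line as not expressing cytoglobin. The cause of this mismatch was not tested. Since the probe's place relative to the transfected cDNA was not looked up, the group labels are used here as given. The labels name the green dye, Cy3, for every sample, while the study's methods assign Cy5 to the control RNA and Cy3 to the CYGB+ RNA. If the methods held for the NCE arrays, the green channel there would not be the control RNA, and which of the sources is right was not settled. All 7 squamous epithelial markers were well above background on every array, with KRT5, KRT14 and TP63 among them. Of the 4 fibroblast markers, COL1A2 was above background on every array and fell by 1.31 in CYGB+ (adjusted p = 0.00195), COL1A1 was above it on 13 arrays, and COL3A1 and PDGFRB on none. Of the leukocyte and endothelial markers CD14 was above background on every array, with a difference of -0.45 (95% CI -0.87 to -0.04, adjusted p = 0.208), CDH5 on 14, PTPRC on 5, CD3E on 3, PECAM1 on 1 and VWF on none. The part of these markers in the results below was not tested.

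The death-inducing TRAIL receptors were compared to ask whether cytoglobin-transfected cells carried other levels of the transcripts through which TRAIL signals. TNFRSF10A, read by probe A_23_P255653 for NM_003844, was 8.56, 8.85 and 8.54 in the NCE replicates and 7.53, 8.33 and 7.98 in the CYGB+ replicates. The highest CYGB+ replicate lay under the lowest NCE replicate, so the groups did not overlap, although the CYGB+ values were spread over more than the NCE values. The means were 8.65 ± 0.18 (SD, n = 3) and 7.94 ± 0.40 (SD, n = 3), a 1.63-fold lower mean intensity in CYGB+.

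The low first CYGB+ replicate of TNFRSF10A rested on a pair of arrays that read far apart, 6.87 and 8.18. Across the 6 CYGB+ arrays the values ran from 6.87 to 8.39 with a median of 8.09, and across the 9 NCE arrays from 8.33 to 8.96 with a median of 8.65, so at the level of arrays the groups overlapped slightly. Without the array at 6.87, which was also the array least correlated with its group, the difference was -0.48 (adjusted p = 0.0592). Without all 4 of the less correlated arrays it was -0.55 (adjusted p = 0.0189), a fit in which slide and group cannot be told apart because the NCE array of slide 2 is among the 4.

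TNFRSF10B, read by probe A_24_P218265 for NM_003842, was 10.60, 10.72 and 10.98 in the NCE replicates and 9.91, 10.26 and 10.18 in the CYGB+ replicates. Every CYGB+ replicate again lay under every NCE replicate, and here the spread was alike in the groups. The means were 10.77 ± 0.19 (SD, n = 3) and 10.12 ± 0.19 (SD, n = 3), a 1.57-fold lower mean intensity in CYGB+. The separation extended to single arrays: the 9 NCE arrays ran from 10.48 to 11.09 and the 6 CYGB+ arrays from 9.82 to 10.34. Repeat arrays of a replicate differed with an SD of 0.13 for this probe, against 0.39 for TNFRSF10A.

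Non-overlap of 3 against 3 replicate values was common on these arrays. It held for 2 of the 11 probes, TNFRSF10A and TNFRSF10B, and for 26.5% of all 42405 probes, or 33.9% of the 17667 probes that were well above background on all arrays. The share called by limma among those 17667 probes was 6.37%.

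The calls on both receptors moved with the model, while their direction held in all 20 alternatives run. With the replicate number as a block, TNFRSF10A passed the threshold (adjusted p = 0.038) and so did TNFRSF10B (adjusted p = 0.049). The block pairs NCE and CYGB+ samples of the same number, a pairing that the labels do not state. With slide as a fixed term neither passed, in a fit whose slide term rests on the 1 NCE array of slide 2, with differences of -0.46 for TNFRSF10A (95% CI -1.25 to 0.34, adjusted p = 0.815) and -0.39 for TNFRSF10B (95% CI -0.84 to 0.07, adjusted p = 0.606). Within slide 2, where 1 NCE array can be set against the 3 CYGB+ replicates, TNFRSF10A read 8.39 in NCE against 7.53, 8.33 and 7.98 in CYGB+, and TNFRSF10B read 10.48 against 9.91, 10.26 and 10.18. The NCE array was above all 3 CYGB+ replicates for each gene, with mean differences of -0.45 and -0.37, which are given as values and not as a test because that array is alone and is 1 of the 4 less correlated arrays. In the submitters' value table the difference of TNFRSF10B was -0.42 (adjusted p = 0.0725).

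**Figure D2:**
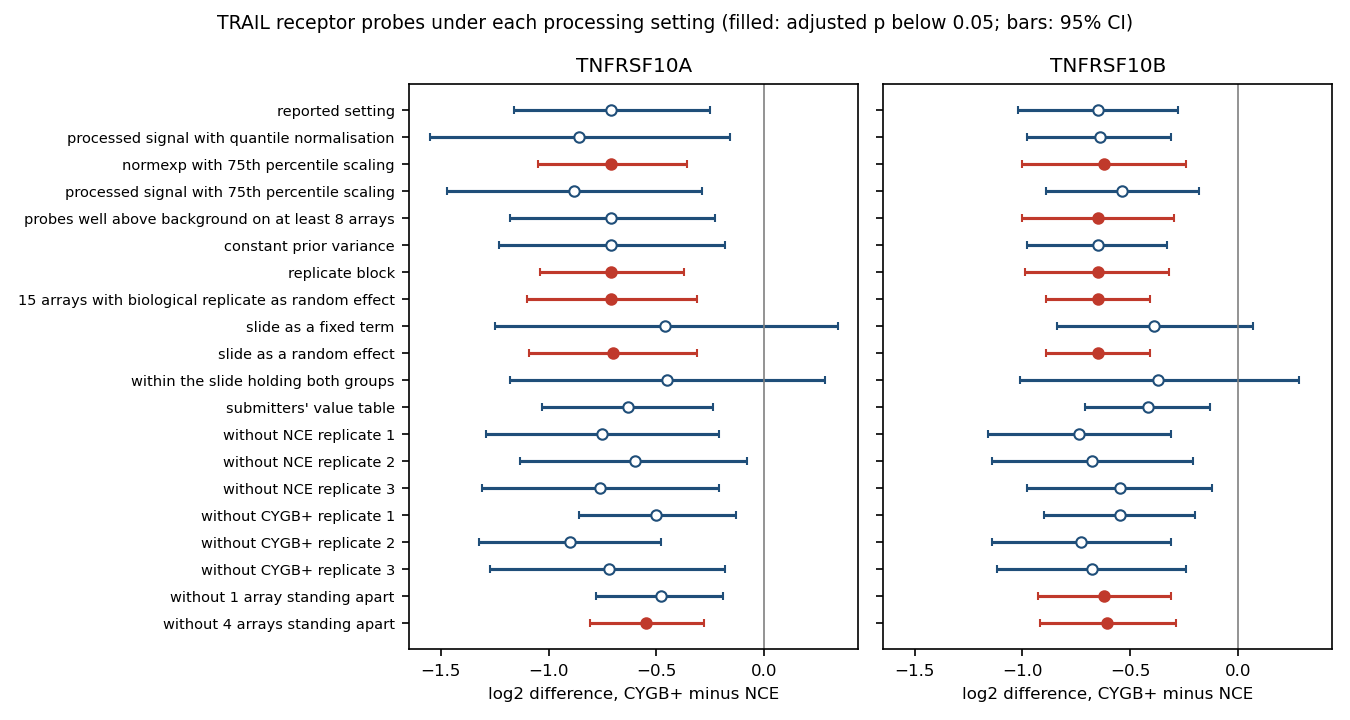
Log2 difference, CYGB+ minus NCE (horizontal axis), of TNFRSF10A and TNFRSF10B in the reported setting and under 19 of the 20 alternatives (rows), with 95% confidence intervals as bars and filled red points where the adjusted p was below 0.05. The fits with the replicate or slide as a random effect use single arrays, so array repeats count there wholly or almost as independent samples. All points lie left of 0, from -0.90 to -0.45 for TNFRSF10A and from -0.74 to -0.37 for TNFRSF10B, and the intervals cross 0 with slide as a fixed term and within slide 2, where the interval takes the lone NCE array to vary as the CYGB+ replicates do.

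The decoy receptor TNFRSF10D, which binds TRAIL without passing on a death signal, gave values on the other side of 0. Probe A_33_P3326588 for NM_003840 read 10.88, 10.96 and 11.04 in NCE and 11.39, 10.82 and 11.31 in CYGB+. Replicate 2 of CYGB+ was the lowest of all 6 values while replicates 1 and 3 were the highest, so the groups overlapped and the spread was wider in CYGB+. The means were 10.96 ± 0.08 and 11.18 ± 0.31 (SD, n = 3 each), a difference of 0.22 (95% CI -0.18 to 0.62, adjusted p = 0.526). Of the 4 less correlated arrays, 3 read above all 11 others for this probe, at up to 11.78 against 10.77 to 11.05. The difference was 0.05 without those 4 arrays and 0.09 without the 1 least correlated, 0.11 and 0.40 without CYGB+ replicate 1 and 2, and 0.37 in the processed signal with 75th percentile scaling. In the RefSeq gene order of chromosome 8 the genes TNFRSF10B, TNFRSF10C, TNFRSF10D and TNFRSF10A follow each other directly, so the members with the lowest and with a positive value relative to NCE are neighbours in the genome. TNFRSF10C, the other TRAIL decoy, which has no death domain, was on the list of pathway genes, and its probe was well above background on no array.

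FAS, the receptor for FAS ligand, was measured by 3 probes that all carry NM_000043 and that did not share a direction. Probe A_23_P63896 read 8.68, 8.84 and 9.06 in NCE and 9.40, 8.86 and 9.21 in CYGB+, a difference of 0.30 (95% CI -0.10 to 0.69, adjusted p = 0.379). Probe A_33_P3381127 read 8.31, 8.63 and 8.77 against 8.20, 8.21 and 8.61, a difference of -0.23 (95% CI -0.61 to 0.15, adjusted p = 0.478). Probe A_33_P3332112 read 6.98, 7.32 and 7.29 against 6.89, 7.01 and 7.32, a difference of -0.13 (95% CI -0.45 to 0.20, adjusted p = 0.661).

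The groups overlapped for all 3 FAS probes. The first of them is printed as 10 spots on each array, A_33_P3381127 as 2 and A_33_P3332112 as 1, and repeat arrays of a replicate differed with an SD of 0.36, 0.12 and 0.08 for these in turn. For the 10-spot probe 3 of the 4 less correlated arrays read above all 11 others, at up to 9.92 against 8.54 to 8.97, and its difference was 0.12 without the 4 or without the least correlated array and 0.18 without CYGB+ replicate 1. The difference of A_33_P3332112 was -0.44 and -0.49 in the processed signal under quantile and 75th percentile scaling, and ran from -0.25 to -0.04 with 1 replicate left out. The difference of A_33_P3381127 ran from -0.37 to -0.13 with 1 replicate left out, and was 0.12 with slide as a fixed term and 0.15 within slide 2, the opposite sign.

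TNFRSF1A, the main receptor for TNF, gave a difference whose sign turned under 4 of the 19 alternatives that could be run for it. Its probe A_23_P139722 for NM_001065, also printed as 10 spots, read 10.09, 9.48 and 9.70 in NCE and 10.18, 9.79 and 9.65 in CYGB+. The groups interleaved, and replicate 1 was the highest in each. The means were 9.76 ± 0.31 and 9.87 ± 0.28 (SD, n = 3 each), a difference of 0.11 (95% CI -0.34 to 0.57, adjusted p = 0.79). All 4 of the less correlated arrays read above all 11 others for this probe, 10.05 to 10.53 against 9.25 to 9.91. The only NCE array of slide 2 was the highest of the 15 at 10.53, and the difference was -0.62 with slide as a fixed term and -0.65 within slide 2.

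CASP8, the initiator caspase of the receptor route, was measured by probe A_24_P157087 for NM_033355, at 7.76, 7.71 and 7.85 in NCE and 7.42, 7.67 and 7.76 in CYGB+. The third CYGB+ replicate lay inside the NCE range, so the groups overlapped. The difference was -0.16 (95% CI -0.44 to 0.13, adjusted p = 0.517). It was -0.41 and -0.45 in the processed signal under quantile and 75th percentile scaling, -0.33 with slide as a fixed term, -0.32 within slide 2 and -0.06 without CYGB+ replicate 1, none of them called.

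CFLAR, the c-FLIP gene, was measured by a probe for NM_001127184 and a probe for NM_003879. A_23_P209394, for the former, read 8.64, 8.69 and 8.85 in NCE and 8.92, 8.83 and 9.16 in CYGB+, a difference of 0.24 (95% CI -0.07 to 0.56, adjusted p = 0.367). A_24_P120115, for the latter, read 6.79, 6.84 and 6.88 against 6.84, 7.02 and 7.07, a difference of 0.14 (95% CI -0.09 to 0.37, adjusted p = 0.472). Both had higher CYGB+ means with overlapping replicates, CYGB+ replicate 2 lying inside the NCE range for the former and replicate 1 for the latter. With slide as a fixed term the difference of A_23_P209394 was -0.01, and within slide 2 it was 0.02. CFLAR, CASP10 and CASP8 are consecutive genes on chromosome 2 in RefSeq order.

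CASP9 had the smallest difference of the 8 genes. Probe A_23_P97309 for NM_001229 read 8.13, 8.13 and 8.10 in NCE and 8.05, 8.16 and 8.12 in CYGB+. The means were 8.12 ± 0.02 and 8.11 ± 0.06 (SD, n = 3 each), a difference of -0.01 (95% CI -0.26 to 0.24, adjusted p = 0.977). Single arrays ranged from 7.91 to 8.33, and the sign of the difference turned under 5 of the 20 alternatives without any of them giving a call.

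**Figure D3:**
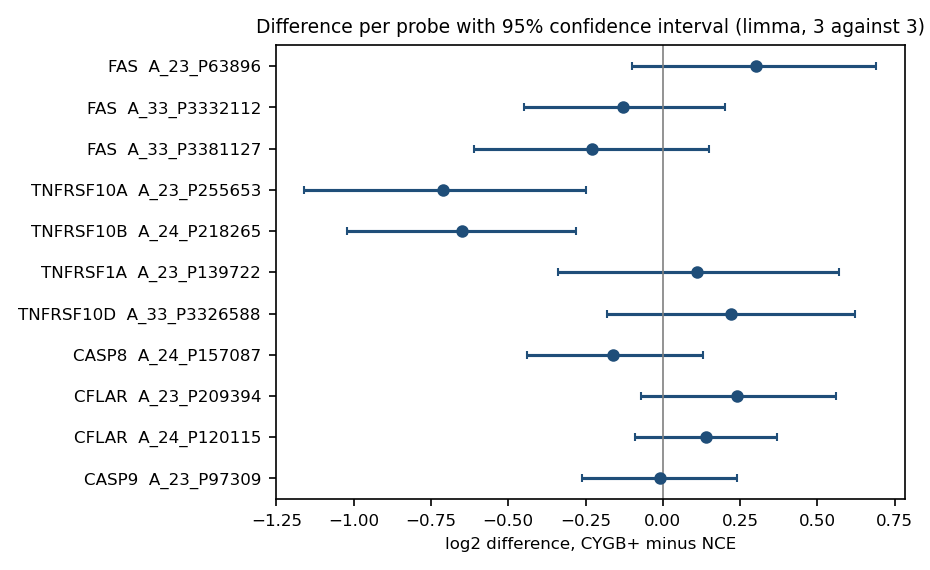
Log2 difference, CYGB+ minus NCE (horizontal axis), of each of the 11 probes with its 95% confidence interval, from limma on 3 against 3 biological replicates. The intervals of TNFRSF10A and TNFRSF10B lie left of 0 without adjustment over all probes, and the other 9 intervals include 0.

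Of 48 further genes of the pathway, 47 had a probe, and the probe with the highest mean stood for each gene. In CYGB+ 1 gene rose, CYLD, 1 fell, FADD, and 45 were not called; 35 of the 47 were well above background on all arrays and 6 on none. The median difference over the 63 probes of these genes was 0.02, against 0 over all probes, and the 2 genes called stand beside the background of 3.47% of probes called.

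FADD, the adaptor that links FAS and the TRAIL receptors to CASP8, was measured by A_23_P86917 for NM_003824. It read 13.29, 13.27 and 13.45 in NCE and 12.46, 12.65 and 12.74 in CYGB+, with no overlap. The means were 13.34 ± 0.10 and 12.62 ± 0.14 (SD, n = 3 each), a fall of 1.65-fold and a difference of -0.72 (95% CI -1.02 to -0.42, adjusted p = 0.0257). The size was alike with slide as a fixed term, -0.76 (adjusted p = 0.0295), and within slide 2, -0.75, a value from 1 NCE array. The call was lost when any of NCE replicates 1, 2 and 3 or CYGB+ replicates 2 and 3 was left out, with differences from -0.78 to -0.66 and adjusted p from 0.0504 to 0.135. In the submitters' own value table the difference was -0.41 (adjusted p = 0.077) and in the processed signal scaled to the 75th percentile -0.44 (adjusted p = 0.196). The methods' t-test on the reported values did not call FADD either (adjusted p = 0.0878).

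CYLD, a deubiquitinase that acts on RIPK1 and other components of the TNF receptor complex, was measured by A_33_P3251771 for NM_015247. It read 6.65, 6.64 and 6.54 in NCE and 7.20, 7.16 and 7.31 in CYGB+, with no overlap. The means were 6.61 ± 0.06 and 7.22 ± 0.08 (SD, n = 3 each), a rise of 1.53-fold and a difference of 0.61 (95% CI 0.40 to 0.83, adjusted p = 0.0129). The processed signal has no added offset, whereas the offset of the reported values makes differences of dim probes smaller. In the processed signal the difference was larger, 1.21 under quantile scaling (adjusted p = 0.0304) and 1.17 under 75th percentile scaling (adjusted p = 0.0181). In the reported values with slide as a fixed term the difference was 0.31 (adjusted p = 0.625), and within slide 2, against 1 NCE array, it was 0.32. The call was also lost without NCE replicate 2 (adjusted p = 0.0731) or NCE replicate 3 (adjusted p = 0.089), and with the methods' t-test (adjusted p = 0.0611).

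**Figure D4:**
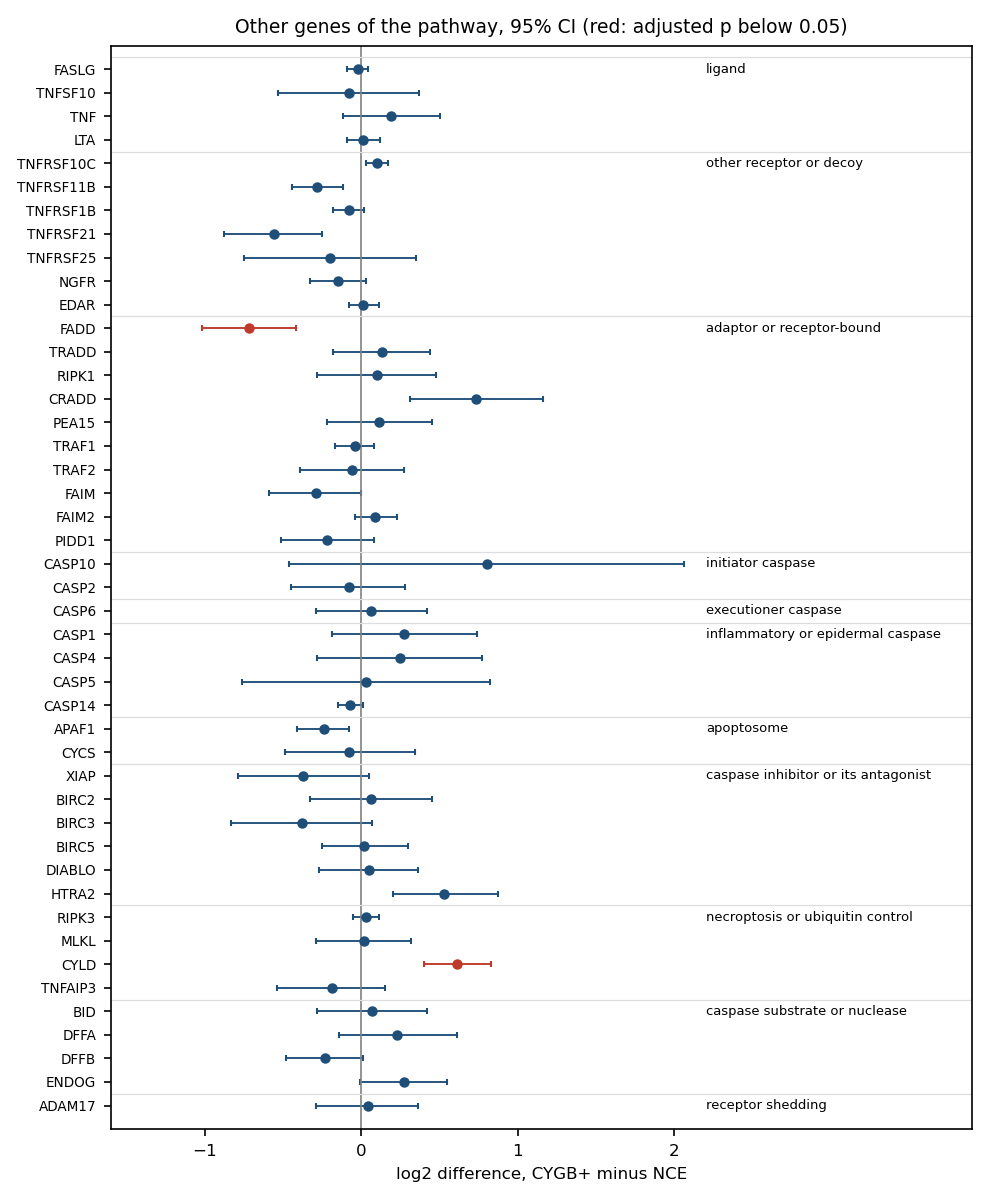
Log2 difference, CYGB+ minus NCE (horizontal axis), of further pathway genes grouped by role, each with its 95% confidence interval from limma, in red where the adjusted p was below 0.05. FADD at -0.72 and CYLD at 0.61 are the points in red, and CASP10 at 0.80 has the widest interval.

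The rest of the list reported here is given by role, with no call in any group other than those of FADD and CYLD. The 4 ligands, among them FASLG and TNFSF10, which encodes TRAIL, lay between -0.08 and 0.19, and 2 of them were above background on no array. A second TNFSF10 probe of nearly the same mean, A_33_P3226810, was at -0.32 (95% CI -0.58 to -0.05, adjusted p = 0.174), beside -0.08 for the probe that stood for the gene. The 7 other receptors and decoys lay between -0.56 and 0.10. The 10 adaptors and receptor-bound proteins spanned -0.72 to 0.73, with FADD at the lower end and CRADD at the upper end.

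CASP10, the initiator caspase nearest in kind to CASP8, was at 0.80 (95% CI -0.46 to 2.06, adjusted p = 0.456) by probe A_33_P3383283, where NCE replicate 2 read 9.75 while the other 5 replicates of both groups read 11.90 to 12.36. That probe was well above background on 14 of the 15 arrays, and its single arrays are not given here. The other CASP10 probes, A_24_P3045, A_33_P3255075 and A_33_P3504659, were at 0.14, -0.06 and -0.12. The initiator CASP2 was at -0.08, CASP6 was at 0.06, and the 4 inflammatory or epidermal caspases lay between -0.07 and 0.27. The apoptosome genes APAF1 and CYCS were at -0.24 and -0.08. The 6 caspase inhibitors and their antagonists, XIAP and DIABLO among them, lay between -0.38 and 0.53, and the 4 substrates and nucleases between -0.23 and 0.27. The sheddase gene ADAM17, which releases TNF and its receptors from the cell surface, was at 0.04.

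A further 3 uncalled genes are named after their values were seen, for differences larger than those of most of the list. TNFRSF21, a death domain receptor, differed by -0.56 (adjusted p = 0.0641). CRADD, an adaptor of CASP2, differed by 0.73 (adjusted p = 0.0683, and 0.0265 with the replicate block). CRADD was called in 8 of the 20 alternatives, the replicate block among them. With slide as a fixed term its difference was 0.34 (adjusted p = 0.83), and within slide 2, against 1 NCE array, it was 0.33. The methods' t-test did not call CRADD (adjusted p = 0.231). HTRA2, a mitochondrial protease that antagonises caspase inhibitors, differed by 0.53 (adjusted p = 0.087).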

How the data were processed

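RNA of 3 NCE and 3 CYGB+ biological replicates was hybridised to Agilent SurePrint G3 human gene expression arrays. The deposited scanner files hold green and red intensity per spot, extracted by the authors with Feature Extraction 10.7.3.1. The labels name Cy3 (green) for every sample, while the study's methods give Cy5 to the control RNA. The green channel was used for both groups, and the red channel, whose RNA the labels do not name, was not used. The authors' value table holds log2 values of 15031 non-control probes, 9 of the 11 member probes among them. Deviations of its values from each probe's median over the arrays correlate at 0.86 to 0.946, per array, with those of the scanner values. The table therefore runs in the same direction. Both sets of values were centred for that comparison, so it cannot show how the table was centred. The table was taken as centred per probe, and the study's methods name quantile normalisation of 1-colour data. How the table's values were centred is not given in the sources used here. Its array medians were -0.16, -0.01 and 0.11 for the arrays of NCE replicate 1, -0.04, 0.04 and 0.09 for replicate 2, and -0.05, 0.18 and -0.02 for replicate 3, and 0.14 and 0, -0.01 and -0.05, and -0.02 and 0.16 for CYGB+ replicates 1, 2 and 3.

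Median spot signal (planned as mean signal, which the files used here do not give) was corrected with normexp (offset 50) against the local background in limma 3.58.1 (R 4.3.3). The offset is added to every corrected signal before the log2, which makes the differences of dim probes smaller. Spots flagged as non-uniform outliers and control spots were left out, spots of a probe were averaged in log2, arrays were quantile normalised, and array repeats of a replicate were averaged. CYGB+ was compared with NCE by limma with an intensity trend, adjusted by Benjamini-Hochberg over 42405 probes and called below 0.05, with no filter on dim probes. The procedure was tested on simulated replicate values with larger planted changes than those of the TRAIL receptors and no slide or array structure. That test therefore does not bear on changes of the size seen here or on the overlap of slide and group. Probes were named through RefSeq accessions, which gave 25422 probes a symbol. RefSeq coordinates are of another build than the array's and are not given, and probe positions and sequences were not looked up.

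Replicate numbers come from the labels, and RNA was extracted on 3 occasions. Deviations of same-numbered samples from their group means correlated at 0.22, 0.24 and 0.32 over probes. Of differently numbered pairs, 3 had r of 0.17 to 0.32 and 3 had r of -0.52 to -0.43. The correlations therefore did not single out same-numbered pairs. The labels do not say that a number marks a shared occasion, so the reported fit was unpaired, with the block as an alternative. Other alternatives were the background correction, the scaling, a filter on dim probes, the variance prior, the methods' t-test, single arrays, slide, the value table and leaving out replicates; 2 that leave out arrays were chosen after seeing the data. The genes and lists were chosen with earlier results of these data known. Every member probe is named; of the pathway list, up to 6 called genes in each direction. The genes most like a called member were to be named, and none was, as no member was called. Some genes of the pathway list are counted in its totals and not reported singly here. Array number limits the precision.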

Additional observations from a re-analysis of the deposited data

Results flagged for a closer look

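Among the member probes, the values of single arrays within a group were checked for an array far from the rest by Dixon's ratio, the gap to the nearest array over the range of the group. TNFRSF10A on the first array of CYGB+ replicate 1 read 6.87, the nearest of the 6 CYGB+ arrays read 7.95, and the ratio was 0.709 against a critical value of 0.625. TNFRSF10D on the second array of NCE replicate 3 read 11.3, the nearest of the 9 NCE arrays read 11.02, and the ratio was 0.631 against 0.493. Both arrays are among the 4 less correlated with their group. Chance flags about 1 in 20 groups of values, and 11 probes were examined in each of 2 groups; the cause was not tested.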

How the results depend on the processing

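The differences of FAS A_23_P63896, FAS A_33_P3332112, TNFRSF10A, TNFRSF10B, TNFRSF10D, CASP8 and CFLAR A_24_P120115 kept their sign, not their size, under every alternative run for them. Those of the other probes did not. FAS A_33_P3381127 was at 0.12 with slide as a fixed term and 0.15 within slide 2. TNFRSF1A was at -0.62 and -0.65 under these, -0.03 without NCE replicate 2 and -0.04 without CYGB+ replicate 1, and up to 0.28 without NCE replicate 1. CFLAR A_23_P209394 was at -0.01 with slide as a fixed term. CASP9 was at 0.14 with the processed signal under quantile or 75th percentile scaling, and at 0.02 in the value table, without CYGB+ replicate 1 and without the 4 less correlated arrays.

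No member probe was called in the reported setting, with any replicate left out, or under the alternatives not named next. With the replicate block 2 were called (TNFRSF10A and TNFRSF10B), beside 1917 of all probes and 3 of the pathway list, CRADD being the 1 added there. The same 2 were called with normexp and 75th percentile scaling, with 15 arrays and the replicate as a random effect, with slide as a random effect and without the 4 arrays, and 1 (TNFRSF10B) with the filter on dim probes and without the 1 array least like its group. The fit with slide as a random effect has no replicate term, so array repeats count there as independent samples. With the replicate as a random effect, the estimated correlation between arrays of a replicate was 0.0653, so array repeats counted almost as independent samples. The counts of both fits given below share this limit.

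Against 1472 of all probes and 2 of the pathway list, 2551 and 4 were called with normexp and 75th percentile scaling, 2347 and 6 with the filter, 147 and 0 with the methods' t-test, 5024 and 11 with 15 arrays, 582 and 1 with slide as a fixed term, 5319 and 11 with slide as a random effect, 57 and 0 within slide 2 (1 NCE array, taken to vary as CYGB+ does), 3077 and 7 without the 1 array and 4720 and 8 without the 4. The pathway count was 4 with the processed signal under quantile scaling and with a constant variance prior. The settings that called a member probe also called larger shares of all probes they tested than the reported 3.47%. These shares were 4.52% with the replicate block, 6.02% with normexp and 75th percentile scaling and 10.9% of 21468 probes with the filter. They were 12.1% with 15 arrays and 12.8% with slide as a random effect, of 41553 probes each. Without the 1 array and the 4 arrays they were 7.26% and 11.1%. With a replicate left out the counts ran from 207 to 1378 of all probes, at 584, 227 and 207 without NCE replicates 1, 2 and 3 and 890 and 652 without CYGB+ replicates 2 and 3, from 0 to 3 of the pathway list, and from 0 to 0 of the members. The share of calls that were higher was 50.7%, but 32.8% with slide as a fixed term and 10.5% within slide 2. Processed signal with 75th percentile scaling moved the median of all probes to -0.11. Which of slide, clone or transgene the differences follow cannot be told apart, and the causes of the other shifts were not tested.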
